A study of Homo sapiens with 2 samples.

Results

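The human mitochondrial genome is a small circular chromosome present in many copies per cell, and its genes were described here in HEK293T cells with a stable FKBP5 knockdown. HEK293T cells derive from human embryonic kidney and carry the SV40 large T antigen. The stable knockdown was made with short hairpin RNAs against FKBP5, an immunophilin that binds HSP90, and libraries were made from total RNA. The members were all 37 genes of this chromosome (13 mRNAs, 2 ribosomal RNAs and 22 tRNAs) out of 60683 genes in the count table, chosen by symbol. The samples form 1 group of 2 FKBP5 knockdown libraries, sample 2 with 21284648 counts and sample 1 with 9997706. Control cells were not analysed here, so every value is a level in knockdown cells or a difference between these libraries, and none is a change caused by the knockdown. The labels call both libraries combined and sample 2 a replicate, without saying what was combined. No label says whether the 2 samples came from separate cultures. The p-values below hold counting error only and measure neither the spread between cultures nor other technical spread. All 6 genes listed as typical of HEK293 lines were above 1 CPM in both samples, with summed levels of 894 CPM in sample 2 against 940 CPM in sample 1. FKBP5 itself had 77 counts in sample 2 and 41 in sample 1 (3.52 CPM in sample 2 against 3.95 CPM in sample 1), with no control to set them against. Of 5 blood cell, 5 fibroblast and 4 epithelial line markers, 1, 2 and 2 were above 1 CPM in both samples.

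Mitochondrial genes are transcribed from both strands as long precursors that run through many genes. Most precursors are cut at the tRNAs that lie between the mRNAs and ribosomal RNAs, so that 1 transcript yields many separate RNAs. The mRNAs encode core subunits of complexes I, III, IV and V of oxidative phosphorylation, the ribosomal RNAs build the mitochondrial ribosome, and the tRNAs serve translation inside the organelle. The mature mRNAs carry almost no untranslated sequence. Of the 13 mRNA genes, 6 had an annotated length that is no multiple of 3, a known feature of mitochondrial mRNAs whose stop codon is completed by the poly(A) tail.

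By strand, the annotation places 28 of the 37 genes on the plus strand (12 mRNAs, both ribosomal RNAs and 14 tRNAs) and 9 on the minus strand (MT-ND6 and 8 tRNAs). The plus-strand genes held 98.5% of mitochondrial counts in sample 2 against 98.3% in sample 1, with 95% Wilson intervals of 98.51 to 98.55% and 98.28 to 98.35% for samples 2 and 1. By class, the mRNAs held 83.0% in sample 2 and 83.1% in sample 1, and the ribosomal RNAs 16.96% in sample 2 and 16.9% in sample 1. The tRNAs held 0.0305% in sample 2 (0.0279 to 0.0333%) and 0.0319% in sample 1 (0.0278 to 0.0365%). The division among classes was therefore close in the 2 libraries, although the mitochondrial genome as a whole took 7.57% of all counts in sample 2 and 6.47% in sample 1. These intervals cover counting error only, with each read taken as independent. No molecular identifiers are mentioned, so repeated reads of 1 molecule cannot be told apart and the intervals may be too narrow.

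By complex, the 3 complex IV mRNAs held 48.0% of mitochondrial counts in sample 2 and 46.1% in sample 1. The 7 complex I mRNAs held 23.4% in sample 2 and 24.7% in sample 1. The complex V mRNAs held 6.65% in sample 2 and 6.67% in sample 1, nearly all of it MT-ATP6. MT-CYB, the only complex III subunit of this genome, held 4.97% in sample 2 and 5.58% in sample 1. These shares count reads and grow with gene length, so levels of different genes are compared below as CPM per kilobase. The CPM are the authors' deposited values, whose scaling between the samples matched TMM factors and not the column totals.

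**Figure D1:**
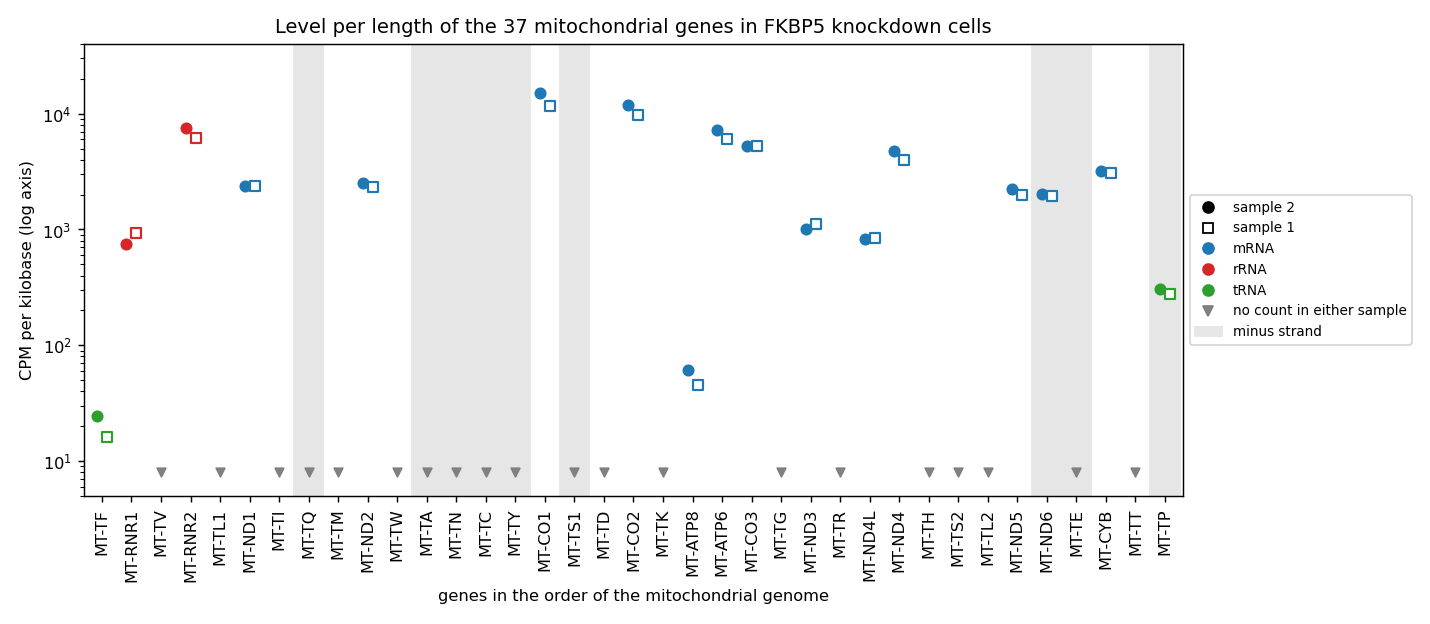
Level of each of the 37 mitochondrial genes in CPM per kilobase on a log axis, in genome order, with filled circles for sample 2 and open squares for sample 1. Grey bands mark minus-strand genes, and triangles at the lower edge mark the 20 genes with no count in either sample and carry no value on the axis. MT-CO1 and MT-CO2 are at the top, MT-ATP8 is far below the other mRNAs, and MT-TF and MT-TP are the tRNA genes with counts.

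MT-CO1 and MT-CO2 of complex IV had the highest levels per kilobase of the genome in both libraries, while MT-CO3 lay below MT-ATP6 of complex V. MT-CO1, the catalytic core of cytochrome c oxidase, had 14960 CPM per kilobase in sample 2 and 11621 CPM per kilobase in sample 1 (13290.5 ± 2361, SD, n = 2). MT-CO2, the subunit that takes electrons from cytochrome c, had 11987 CPM per kilobase in sample 2 and 9766 in sample 1 (10876 ± 1571). MT-CO1 was above MT-CO2 in each library, by 1.25 times in sample 2 and 1.19 times in sample 1. MT-CO3, the remaining core subunit, had 5283 CPM per kilobase in sample 2 and 5284 in sample 1 (5283 ± 1.197). MT-CO2 lay 2.27 times above it in sample 2 and 1.85 times in sample 1. The order of the complex IV mRNAs was the same in both libraries.

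The complex I mRNAs spanned a wider range. MT-ND4, a proton-pumping subunit of the membrane arm, had 4805 CPM per kilobase in sample 2 and 3963 in sample 1. MT-ND2 had 2521 in sample 2 and 2326 in sample 1, and MT-ND1, the subunit next to the quinone site, had 2379 in sample 2 and 2378 in sample 1. MT-ND5, the end subunit of the membrane arm, had 2250 in sample 2 and 1980 in sample 1. MT-ND2 was above MT-ND1 in sample 2 and below it in sample 1, so their order did not hold across the libraries. MT-ND3 was lower, with 1016 CPM per kilobase in sample 2 and 1116 in sample 1. MT-ND4L had 830 CPM per kilobase in sample 2 and 848 in sample 1. MT-ND4L was the lowest complex I mRNA of the genome in both libraries and MT-ND3 the next lowest.

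MT-CYB, the cytochrome b subunit of complex III, had 3214 CPM per kilobase in sample 2 and 3047 in sample 1 (3130 ± 118). MT-ATP6, the proton channel subunit of ATP synthase, had 7189 in sample 2 and 6094 in sample 1 (6642 ± 774). MT-ATP8, the other ATP synthase subunit of this genome, had 279 counts in sample 2 and 98 in sample 1. This was 61.7 CPM per kilobase in sample 2 and 45.6 in sample 1 (53.7 ± 11.3), below every other mRNA of the genome. The 12 plus-strand mRNAs differed by up to 243-fold per kilobase in sample 2 and 255-fold in sample 1. Without MT-ATP8, an alternative chosen after its value was seen, the range was 18.0-fold in sample 2 and 13.7-fold in sample 1.

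MT-ATP8 and MT-ATP6 are known to be carried by 1 shared mRNA, as are MT-ND4L and MT-ND4, and in each pair the reading frames overlap. The sequences at these junctions are printed because the 2 genes of a pair differed so much in count (plus strand, 5′ to 3′, GENCODE 29 on GRCh38, with the bases that belong to both genes in capitals). The stretches are chrM:8512-8587 and chrM:10745-10781.
MT-ATP8 to MT-ATP6 junction: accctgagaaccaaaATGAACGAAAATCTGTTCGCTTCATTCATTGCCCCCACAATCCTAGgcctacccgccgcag
MT-ND4L to MT-ND4 junction: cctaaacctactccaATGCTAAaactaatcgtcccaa

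The overlap was 46 bases in the first pair and 7 bases in the second, and in both it opens with the start codon of the downstream gene. Per kilobase, MT-ATP6 was 117 times MT-ATP8 in sample 2 and 134 times in sample 1. When only bases outside the overlap were counted as length (161 of the 207 bases of MT-ATP8), the ratio was 97.4 in sample 2 and 112 in sample 1. MT-ND4 was 5.79 times MT-ND4L per kilobase in sample 2 and 4.67 times in sample 1. MT-ATP8, MT-ND4L and MT-ND3 were the shortest mRNA genes, with 207, 297 and 346 bases, and were the 3 with the lowest level per kilobase. Over the 13 mRNAs, Spearman's rho of length and mean level per kilobase was 0.55 and Pearson's r was 0.37. These points share the same libraries and are given as a description. The handling of reads that fit several genes is not stated, and its part in these low values was not tested.

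**Figure D2:**
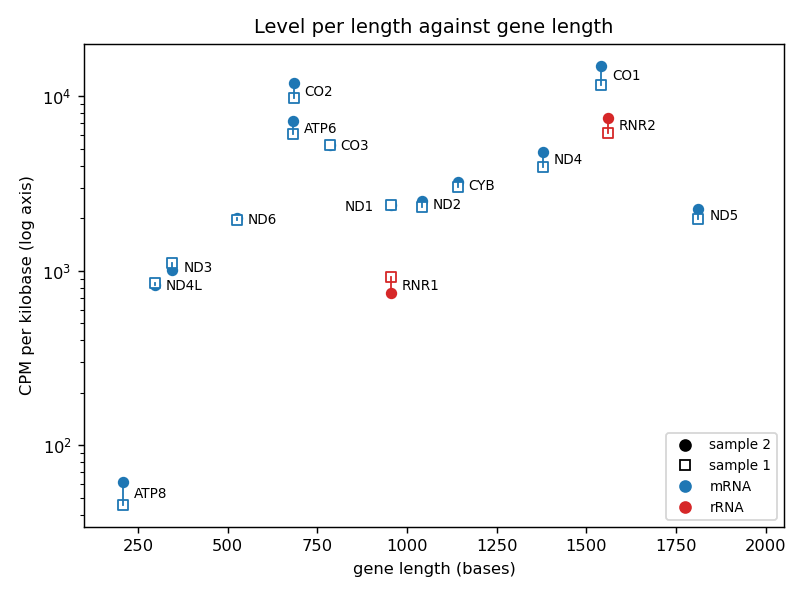
Level per kilobase on a log axis against annotated gene length in bases for the 13 mRNAs and 2 ribosomal RNAs, with filled circles for sample 2 and open squares for sample 1. ATP8, ND4L and ND3 are the shortest mRNA genes and the lowest mRNAs. ND5, the longest at 1812 bases, lies above only ND6, ND3, ND4L and ATP8 among the mRNAs.

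The ribosomal RNAs lie next to each other near the start of the plus-strand precursor, separated by the gene of MT-TV, and yet differed in level. MT-RNR2, the 16S RNA of the large subunit, had 7565 CPM per kilobase in sample 2 and 6173 in sample 1 (6869 ± 985). MT-RNR1, the 12S RNA of the small subunit, had 749 in sample 2 and 927 in sample 1 (838 ± 125). MT-RNR2 was therefore 10.1 times MT-RNR1 in sample 2 and 6.66 times in sample 1. The 2 ribosomal RNAs together had 0.926 times the counts per kilobase of the 13 mRNAs in sample 2 and 0.920 times in sample 1. MT-CO1 exceeded MT-RNR2 by 1.98 times in sample 2 and 1.88 times in sample 1. In undepleted total RNA of human cells the mitochondrial ribosomal RNAs are known to be more abundant than the mRNAs. Whether ribosomal RNA was depleted is not stated, so the ribosomal RNA values describe these libraries and not the cells.

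MT-ND6, a complex I subunit, is the only mRNA of the minus strand and lies tail to tail with MT-ND5, whose last base is at position 14148, next to 14149 in MT-ND6. It had 23216 counts in sample 2 and 10697 in sample 1, or 2023 CPM per kilobase in sample 2 and 1964 in sample 1 (1994 ± 42.2). Its level was 0.706 times the median of the 12 plus-strand mRNAs in sample 2 and 0.724 times in sample 1. Against its neighbours, it was 0.8995 times MT-ND5 in sample 2 and 0.992 times in sample 1, and 0.630 times MT-CYB in sample 2 and 0.645 times in sample 1. MT-ND6 thus stood among the other complex I mRNAs and not apart from them. Its base composition was the reverse of the rest: 35.6% of its bases were guanine and 7.05% cytosine, whereas the plus-strand mRNAs had 6.28 to 16.2% guanine and 29.5 to 35.98% cytosine. The libraries were directional, but the strand setting of the counting is not stated. Without it, MT-ND6 reads and plus-strand precursor reads over the same bases cannot be told apart.

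Of the 22 tRNA genes, 20 had no count in either sample. These were MT-TV, MT-TL1, MT-TI, MT-TQ, MT-TM, MT-TW, MT-TA, MT-TN, MT-TC, MT-TY, MT-TS1, MT-TD, MT-TK, MT-TG, MT-TR, MT-TH, MT-TS2, MT-TL2, MT-TE and MT-TT. Taking 3 counts as the limit that a count of 0 allows, their levels were up to 0.137 CPM in sample 2 against 0.289 CPM in sample 1. MT-TP, the minus-strand proline tRNA, had 453 counts in sample 2 and 194 in sample 1, which was 20.7 CPM in sample 2 against 18.7 CPM in sample 1. MT-TF, the phenylalanine tRNA, had 38 counts in sample 2 and 12 in sample 1, which was 1.74 CPM (95% exact Poisson interval 1.23 to 2.39) in sample 2 and 1.16 CPM (0.598 to 2.02) in sample 1. The tRNA genes span 59 to 75 bases.

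The counted tRNA genes were those that border the control region, the stretch without genes that holds the promoters: MT-TF is the first gene of the annotated sequence and MT-TP the last. Their sequences are printed because they were the only tRNA genes with counts (5′ to 3′ on their own strand, GENCODE 29 on GRCh38), at chrM:577-647 on the plus strand and chrM:15956-16023 on the minus strand.
MT-TF: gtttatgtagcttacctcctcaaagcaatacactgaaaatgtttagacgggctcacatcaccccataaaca
MT-TP: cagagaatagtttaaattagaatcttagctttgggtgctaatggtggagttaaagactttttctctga

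Each of the other 20 tRNA genes had another gene, on either strand, within 31 bases on both sides. Among these 20, 7 had at least 100 bases free of other genes on their own strand on at least 1 side, and all 7 had no count. MT-TS1 on the minus strand is an example, with 1554 and 6634 bases free on its own strand but MT-CO1 directly beside it and MT-TD 3 bases away on the plus strand. MT-TT on the plus strand faces the control region on its own strand and has MT-TP 2 bases away on the other, and it also had no count. Counts were thus found where a flank was free of genes on both strands. The cause of this pattern was not tested. The size selection of the libraries and the counting rule for such short genes are not stated, and no level of mature tRNA can be read from these zeros.

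The question of how far the knockdown libraries differed from each other was addressed gene by gene. Of the 37 members, 17 passed the minimum mean of 1 CPM. In the exact binomial test between the libraries, with Benjamini-Hochberg adjustment over 15530 genes, 8 of the 17 were higher in sample 2 and 2 were lower. Over all genes tested, 4.41% were higher and 4.56% were lower (685 and 708 genes). The split moved with the scaling, to 861 higher and 551 lower with median-of-ratios scaling and to 581 higher and 902 lower with column totals. The test gains power with counts, and among the 52 genes averaging 1000 CPM or more, 11 of them members, 34.6% were higher and 36.5% lower. Of the 41 nuclear genes at that level, 10 were higher and 19 lower. The median log2 ratio of CPM + 1 (sample 2 over sample 1) was 0.14 over the 17 members and 0.012 over all genes tested. In bulk RNA, fewer transcripts per cell and fewer cells that hold them cannot be told apart.

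The members did not move as 1 block. MT-CO1 had 23068 CPM in sample 2 against 17920 CPM in sample 1, a log2 ratio of 0.36. MT-CO2 (log2 ratio 0.30), MT-RNR2 (0.29), MT-ND4 (0.28) and MT-ATP6 (0.24) were also higher, and at most 1 of the 41 abundant nuclear genes reached the ratio of any of these genes. MT-ND5 (0.18), MT-ND2 (0.12) and MT-CYB (0.08) were higher by less, and the largest adjusted p of the 8 was 1e-14, for MT-CYB. MT-RNR1 was lower, with 715 CPM in sample 2 against 884 CPM in sample 1 (log2 ratio -0.31, adjusted p = 1.52e-54 in the exact binomial test). None of the 41 nuclear genes was as low, but MT-RNR1 averaged 799 CPM, below the level that defines them. Among the 2268 nuclear genes averaging 100 CPM or more, the lowest log2 ratio was -0.43. MT-ND3 was lower too, with 351 CPM in sample 2 against 386 CPM in sample 1 (log2 ratio -0.14, adjusted p = 9.81e-05 in the exact binomial test).

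The remaining members did not pass. MT-CO3 had 4142 CPM in sample 2 against 4143 CPM in sample 1, and MT-ND1 had 2274 CPM in sample 2 against 2273 CPM in sample 1. MT-ND4L had 247 CPM in sample 2 against 252 CPM in sample 1. MT-ND6 had 1062 CPM in sample 2 against 1031 CPM in sample 1 (adjusted p = 0.0871 in the exact binomial test), and with median-of-ratios scaling it passed as higher (adjusted p = 0.00994). MT-ATP8 had 12.8 CPM in sample 2 against 9.45 CPM in sample 1, and neither it (adjusted p = 0.0826) nor MT-TF and MT-TP passed the exact binomial test at their lower counts.

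Neighbours on the same precursor differed from each other in this ratio. MT-RNR1 was lower in sample 2 and MT-RNR2, which follows it after MT-TV, was higher. MT-ATP6 was higher while MT-CO3, which starts at the last base of MT-ATP6, had a log2 ratio of -0.00046. MT-ND4 was higher while MT-ND4L, which overlaps it, had -0.031. These genes are known to be carried by 1 shared mRNA, so their ratios cannot be read as those of separate RNAs. As shares of mitochondrial counts, MT-CO1 held 31.3% in sample 2 and 28.8% in sample 1, MT-RNR1 0.969% in sample 2 and 1.42% in sample 1, and MT-CO3 5.61% in sample 2 and 6.65% in sample 1. Over the 15 mRNAs and ribosomal RNAs, Pearson's r of the log2 ratio was -0.099 with GC content, 0.28 with gene length and 0.56 with mean level per kilobase. For mean level per kilobase, Spearman's rho was 0.51 over these 15 genes and 0.39 over the 13 mRNAs. That level is made from the same CPM values as the ratio, so the pair is not independent. These are descriptions over genes that share the same libraries. The exact binomial test holds counting error only, so a call says that the libraries differ and not that cultures do.

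**Figure D3:**
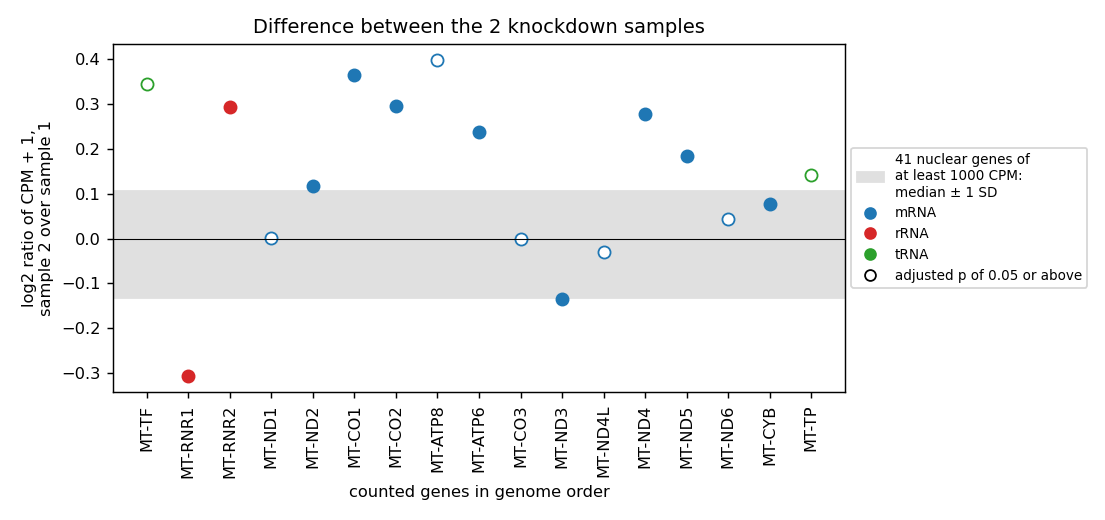
Log2 ratio of CPM + 1, sample 2 over sample 1, for the 17 counted mitochondrial genes in genome order, with filled points past the exact binomial test. The grey band is the median ± 1 SD of the 41 nuclear genes averaging 1000 CPM or more. Among the filled points, MT-CO1, MT-CO2, MT-RNR2, MT-ND4, MT-ATP6, MT-ND5 and MT-ND2 lie above the band, MT-CYB lies inside it, MT-ND3 lies at its lower edge and MT-RNR1 lies well below it.

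Reads of mitochondrial genes can also fit copies of mitochondrial DNA in nuclear chromosomes. Of 404 pseudogenes in the table named by symbol as such copies, 135 had a count in at least 1 sample and 9 reached a mean of 1 CPM. Together they held 11444 counts in sample 2 and 4453 in sample 1, equal to 0.710% of the mitochondrial counts in sample 2 and 0.689% in sample 1. The 5 highest took 95.2% of these in sample 2 and 95.3% in sample 1. Of the 15 mRNA and ribosomal RNA genes, MT-RNR1, MT-ND3 and MT-ND4L had every 50-base stretch found in no other annotated transcript. MT-CO1, MT-ATP6 and MT-ND2 had 50.5%, 53.3% and 56.4% of such stretches, so reads shared with copies make their levels uncertain. MT-RNR2 had 85.96%.

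MTATP6P1, a copy of MT-ATP6 on chromosome 1, led with 9579 counts in sample 2 and 3809 in sample 1. This was 438 CPM (95% exact Poisson interval 430 to 447) in sample 2 and 367 CPM (356 to 379) in sample 1, or 8.95% of the MT-ATP6 count in sample 2 and 8.85% in sample 1. The copy matched MT-ATP6 at 98.5% of 681 bases, with 10 differences. A 60-base stretch with the most differences is printed to show how alike the genes are, with the differing bases in capitals (plus strand, GENCODE 29 on GRCh38), at chrM:8642-8701 and chr1:633811-633870.
MT-ATP6 stretch: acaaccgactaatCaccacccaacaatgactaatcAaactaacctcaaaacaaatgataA
MTATP6P1 stretch: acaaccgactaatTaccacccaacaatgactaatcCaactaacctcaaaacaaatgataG

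MTCO1P12, a copy of MT-CO1 in the same block of chromosome 1, was as close to its mitochondrial gene, with 98.7% identity, but had 780 counts in sample 2 and 252 in sample 1. This was 0.155% of the MT-CO1 count in sample 2 and 0.136% in sample 1. It shared 49.4% of the 50-base stretches of MT-CO1, and MTATP6P1 shared 46.7% of those of MT-ATP6. Sharing of sequence and share of counts thus did not run in parallel for these copies. MTCO2P12 and MTCO3P12 on chromosome 1 and MTND4P12 on chromosome 5 had 8.56, 6.82 and 8.92 CPM in sample 2, and 5.78, 5.69 and 6.07 CPM in sample 1. Between the libraries, MTATP6P1 (adjusted p = 4.58e-18) and MTCO1P12 (5.03e-06) passed the exact binomial test as higher in sample 2 and the other 3 did not. The ratio of CPM (sample 2 over sample 1) was 1.19 for MTATP6P1 and 1.18 for MT-ATP6. It was 1.47 for MTCO1P12 and 1.29 for MT-CO1, 1.47 for MTND4P12 and 1.21 for MT-ND4, 1.48 for MTCO2P12 and 1.23 for MT-CO2, and 1.199 for MTCO3P12 and 0.9997 for MT-CO3. Each copy thus had the higher ratio of its pair, a difference that was not tested and that rests on 59 to 252 counts in sample 1 for these 4 copies. Whether the counts of a copy come from its own locus or from mitochondrial RNA was not tested.

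**Figure D4:**
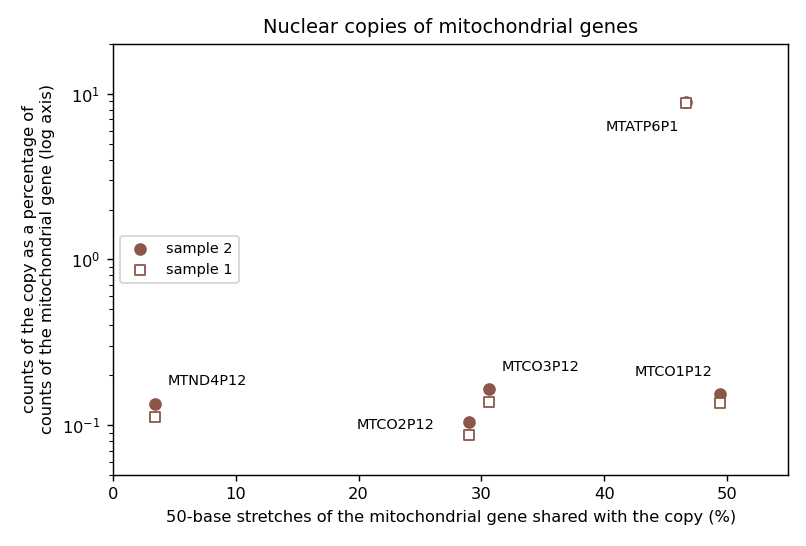
Counts of the 5 highest nuclear copies, among those found by symbol, as a percentage of the counts of the matching mitochondrial gene (log axis). The horizontal axis is the percentage of 50-base stretches of that gene shared with the copy. Filled circles are sample 2 and open squares are sample 1. MTATP6P1 lies near 9% and the other copies lie below 0.2%.

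Nuclear genes of the same complexes were far lower per kilobase than most mitochondrial mRNAs, with lengths taken over all annotated exons, which lowers the nuclear values. In complex I, NDUFV1, which binds NADH, had 41.5 CPM per kilobase in sample 2 and 43.4 in sample 1, below all 7 mitochondrial complex I mRNAs. NDUFS1, an iron-sulphur subunit, had 11.7 in sample 2 and 11.4 in sample 1. In complex III, cytochrome c1 (CYC1) had 154 in sample 2 and 159 in sample 1, and the core protein gene UQCRC1 had 92.7 in sample 2 and 89.8 in sample 1. In complex IV, COX5A had 106 in sample 2 and 118 in sample 1, and COX4I1 had 47.8 in sample 2 and 48.95 in sample 1. In complex V, ATP5F1B, the catalytic beta subunit of ATP synthase, had 440 in sample 2 and 470 in sample 1, and ATP5F1A had 33.8 in sample 2 and 36.1 in sample 1. MT-ATP8 was the only mitochondrial mRNA below ATP5F1B.

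**Figure D5:**
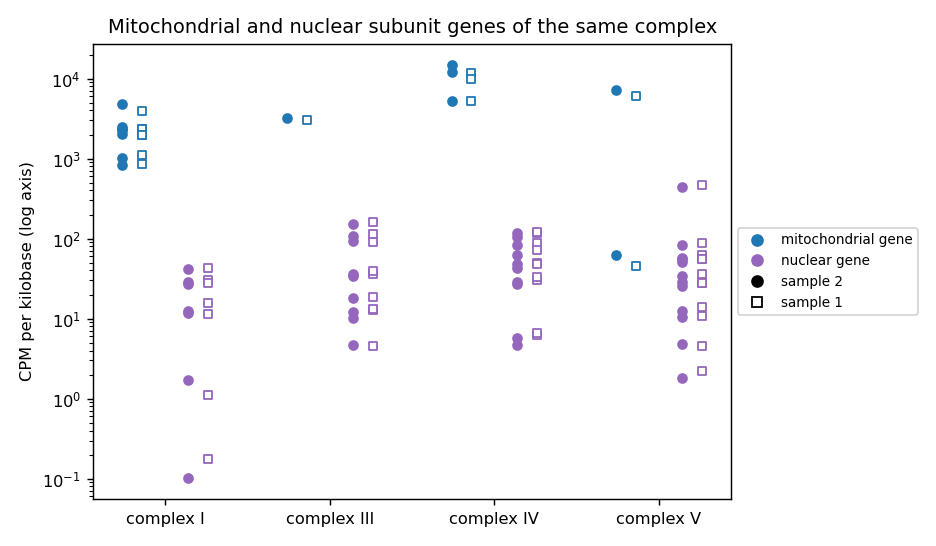
CPM per kilobase on a log axis of mitochondrial (blue) and nuclear (purple) subunit genes of complexes I, III, IV and V, with filled circles for sample 2 and open squares for sample 1. In complexes I, III and IV every mitochondrial gene lies above every listed nuclear gene, and in complex V MT-ATP8 lies among the nuclear genes.

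Nuclear genes that express and maintain the mitochondrial genome were described from lists by role, with the partner subunits counted in. Of 122 genes in the lists, 119 passed the minimum of 1 CPM, and in the exact binomial test 15 were lower and 2 higher in sample 2. The median log2 ratio was -0.07. Of the 35 list genes averaging 100 CPM or more, 7 were lower and 1 higher, and of the 2268 nuclear genes at that level 16.4% were lower and 9.79% higher. Of the 84 list genes below that level, 8 were lower and 1 higher, and of the 13245 nuclear genes there 2.51% were lower and 3.44% higher. The 2 higher genes, the mitochondrial DNA polymerase POLG (185 CPM in sample 2 against 170 CPM in sample 1) and the complex I subunit gene NDUFS7 (12.8 CPM in sample 2 against 8.29 CPM in sample 1), were singled out after their values were seen, NDUFS7 outside the naming rule. None of the 10 genes for transcription passed. POLRMT, the mitochondrial RNA polymerase, had 372 CPM in sample 2 against 362 CPM in sample 1, and TFAM, which packages mitochondrial DNA and opens its promoters, had 81.7 CPM in sample 2 against 88.96 CPM in sample 1.

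Of the 6 genes for RNA stability and decay, 3 were lower in sample 2 and none higher, beside 4.56% lower and 4.41% higher over all genes tested. LRPPRC, which stabilises mitochondrial mRNAs, had 258 CPM in sample 2 against 267 CPM in sample 1 and was not among them. PNPT1, the polynucleotide phosphorylase of RNA turnover, was lower, with 72.8 CPM in sample 2 against 87.0 CPM in sample 1. SLIRP and SUPV3L1, named after their values were seen, were the others. SLIRP, the partner of LRPPRC, had 63.2 CPM in sample 2 against 74.9 CPM in sample 1, and the helicase gene SUPV3L1 had 45.2 CPM in sample 2 against 53.3 CPM in sample 1. Of the 13 genes for RNA processing 1 was lower, HSD17B10 (115 CPM in sample 2 against 132 CPM in sample 1), a subunit of the enzyme that cuts the 5′ ends of tRNAs, also named after its value was seen. FASTK had 274.5 CPM in sample 2 against 279 CPM in sample 1, and TBRG4 had 214 CPM in sample 2 against 217 CPM in sample 1.

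Of 18 tested genes for modification of tRNA and ribosomal RNA, 2 were lower, and of 17 for DNA maintenance 1 was higher. GTPBP3, which modifies tRNA wobble bases, had 257 CPM in sample 2 against 259 CPM in sample 1, and the RNA methyltransferase gene NSUN2 had 167 CPM in sample 2 against 178 CPM in sample 1. SSBP1, which coats single-stranded mitochondrial DNA, had 113 CPM in sample 2 against 124 CPM in sample 1. Of 18 tested genes for translation and assembly 1 was lower. The elongation factor gene TUFM had 423 CPM in sample 2 against 430 CPM in sample 1, and OXA1L, which inserts proteins into the inner membrane, had 149.6 CPM in sample 2 against 144 CPM in sample 1. Of the nuclear partners in complexes I, III, IV and V, 1, 0, 2 and 5 genes were lower, out of 6, 9, 10 and 12 tested. ATP5F1B, ATP5F1A and COX5A were among them, with log2 ratios of -0.10, -0.09 and -0.15. Beside the counts per list, 4.56% of all genes tested were lower and 4.41% higher. Of nuclear genes averaging 100 CPM or more, 16.4% were lower and 9.79% higher. The lists are small, and lower calls over all of them moved both ways with the setting. They went from 15 to 19 with column totals, to 12 with median-of-ratios scaling and to 11 without the filter.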

How the data were processed

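The authors deposited raw counts and CPM per Ensembl gene for each of 2 samples. Per the submitters' processing notes, STAR 2.7.7a, edgeR and the build GRCh38 were used. Not given in the sources used here are the counter, whether it used strand, how it handled ambiguous reads, and any ribosomal RNA depletion. The deposited CPM were whole reads for 100% of values (tolerance 1e-06), scaled to effective sizes of 21854196 in sample 2 and 10375554 in sample 1. These lie above the column totals of 21284648 and 9997706 in samples 2 and 1. Between the samples, this scaling gave nearly the same log2 ratios as TMM factors (0.3643 for MT-CO1 under each). The deposited scaling was kept.

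Members were matched by symbol, and coordinates, strands, lengths and sequences came from GENCODE 29 (GRCh38), which holds 96.4% of the gene IDs. Level per length was CPM per kilobase of exons. A 2-sided exact binomial test compared the libraries over the 15530 genes averaging 1 CPM or more, with Benjamini-Hochberg adjustment and a threshold of 0.05. It includes counting error only and compares libraries, not conditions. It was run on simulated counts with Poisson error only, a setting that cannot show its false calls between real libraries. Log2 ratios used a pseudocount of 1 CPM, which understates ratios of low genes. Shares have 95% Wilson intervals and levels 95% exact Poisson intervals. The limit for a count of 0 is set at 3 counts, below the upper bound of the 2-sided Poisson interval. TMM factors came from edgeR 4.0.16 (R 4.3.3), and other steps used Python 3.11.15, pandas 2.3.3, numpy 2.4.6, scipy 1.17.1 and Biopython 1.88.

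The members and the nuclear lists (122 genes matched) were chosen with earlier results of these data known. The genes named were all 37 members, the 2 highest of each nuclear list and the 5 highest nuclear copies found by symbol, by mean CPM. Alternatives were other scalings, filters, pseudocounts and length measures, and leaving out each sample. No read file, scrambled control library or genome sequence was used here.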

Additional observations from a re-analysis of the deposited data

How the results depend on the processing

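The count of members past the exact binomial test was 10 of 17, and 10 or 11 under the 4 other scalings and without the filter. The median log2 ratio of the members stayed between 0.13 and 0.16 under these settings and the smaller pseudocount. Among the scalings, TMM factors nearly repeat the deposited one, so their equal result was fixed in advance and is no separate check. Scaling to counts outside the mitochondrial genome also came close (log2 ratio of MT-CO1 0.366 against 0.364) and adds little as a check. Scaling to column totals turned MT-ND1 to a log2 ratio of -0.015. Median-of-ratios scaling turned MT-CO3 to 0.015, and scaling to counts outside the mitochondrial genome turned it to 0.0013, none of these past the test. Calls in the nuclear lists were 17 and ranged from 12 to 20.

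Ratios per kilobase moved with the length measure. With 100 bases taken off each gene, the ribosomal RNA to mRNA ratio was 0.888, the MT-ND6 ratio 0.801 and the range of plus-strand mRNAs 137-fold. With unique 50-base stretches as length they were 0.780, 0.688 and 356-fold. The range was 193-fold over bases outside overlaps and 15.9-fold without MT-ATP8, which was chosen after seeing the data. The tRNA share was 0.02905% over minus-strand genes. With 2 samples, leaving one out only gives the value of the other, which says nothing about stability. The ratio of MT-RNR2 to MT-RNR1 differed by over 1.5 times between the samples (10.1 in sample 2 and 6.66 in sample 1). No paired analysis was possible because all samples belong to 1 group. With 98 to 279 counts for MT-ATP8 and 12 to 38 for MT-TF, depth limits those levels. Nuclear copies outside annotated transcripts were not searched, and annotated ones without a matching pseudogene symbol were not counted.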
